A study of Mus musculus with 6 samples.

Results

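The RNA of 10 genes that macrophages use to show antigen to helper T cells was examined in adherent mouse peritoneal cells: the MHC class II genes H2-Aa, H2-Ab1 and H2-Eb1, their loading partners H2-DMa, H2-DMb1 and Cd74, the regulator Ciita, and the costimulation genes Cd80, Cd86 and Cd40. They were taken by symbol from a table of 46141 genes, in which each name stood once. The treated group was BSN-37 (3 pools), an agent that the labels give by code name alone, injected into the peritoneum as 0.2 mL at 48 µg/mL. The PBS group (3 pools) received 0.2 mL of phosphate-buffered saline. All animals were healthy male Balb/c mice aged 6 to 8 weeks, and all had received 2 mL of 3% thioglycollate broth 3 days before sampling, an irritant that draws monocytes and macrophages into the cavity. Cells were washed out 12 h after the injection and left to adhere for 4 h, and each library holds RNA of 6 mice pooled, so that differences between single animals are not seen. Whole RNA was sequenced after removal of ribosomal RNA.

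MHC class II molecules are pairs of an alpha and a beta chain that carry peptides from taken-up material to the cell surface, where CD4 T cells read them. The invariant chain, encoded by Cd74, guards the peptide groove on the way, and the DM pair (H2-DMa, H2-DMb1) exchanges its last remnant for peptide. The chains, the invariant chain and DM are switched on together by CIITA, a coactivator that binds no DNA itself and docks on factors at the X and Y boxes of these promoters. A T cell that sees peptide also needs a second signal, from CD80 and CD86 through its receptor CD28, and CD40 receives the T cell's answer. In mouse macrophages interferon gamma is the classic inducer of Ciita and class II, and elicited peritoneal macrophages are a mixed population in which class II levels differ from cell to cell.

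The X and Y boxes, at which CIITA docks on bound factors, are marked in the DNA before 3 of these genes. They are shown because the levels of H2-Aa, H2-Eb1 and H2-DMb1 are set beside that of Ciita further on. Each run is the 150 bases before the annotated start, 5′ to 3′ in the direction of the gene, from RefSeq on GRCm38.p6, and the capitals mark the X box core (CTNGNAACT, N standing for any base) and the Y box core (TGATTGG).
H2-Aa, chr17:34287824-34287973, minus strand: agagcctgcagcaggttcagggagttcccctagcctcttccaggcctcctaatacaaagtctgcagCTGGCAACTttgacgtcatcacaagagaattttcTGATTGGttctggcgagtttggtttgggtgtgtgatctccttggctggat
H2-Eb1, chr17:34305717-34305866, plus strand: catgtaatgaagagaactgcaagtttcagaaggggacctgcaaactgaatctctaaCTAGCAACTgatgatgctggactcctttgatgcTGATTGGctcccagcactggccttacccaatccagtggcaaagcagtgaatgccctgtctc
H2-DMb1, chr17:34153041-34153190, plus strand: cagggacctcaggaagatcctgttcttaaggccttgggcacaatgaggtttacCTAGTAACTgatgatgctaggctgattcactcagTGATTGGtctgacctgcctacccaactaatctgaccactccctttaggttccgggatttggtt

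The core letters were picked by reading these 3 promoters, so their presence there is no finding. Searched on both strands without overlap between the cores, the X core was in 4.10% and the Y core in 7.82% of 32851 windows of 300 bases around annotated starts. The X core followed within 60 bases by the Y core was in 8 windows (0.0244%), of which 3 belong to the members shown. The gap between the cores was 25 bases in H2-Aa and H2-DMb1 and 24 in H2-Eb1. Both windows of H2-DMa and the window of Cd80 held neither core in these letters. H2-Ab1, Cd74, Ciita, Cd86 and Cd40 were not searched here. The sequence is that of the C57BL/6J reference, and Balb/c mice carry another MHC haplotype, H-2d, so single bases may differ in the mice studied.

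**Figure D1:**
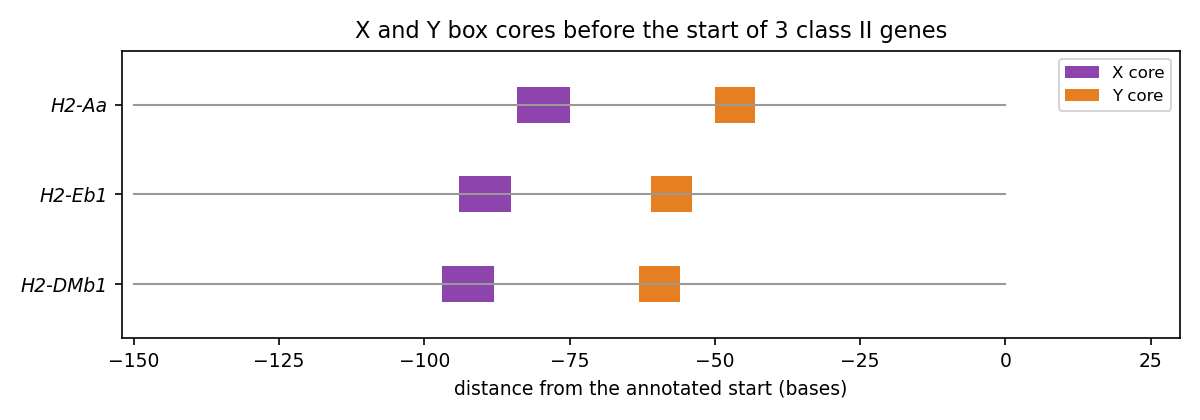
Positions of the X box core (purple) and the Y box core (orange) in the 150 bases before the annotated start of H2-Aa, H2-Eb1 and H2-DMb1; the horizontal axis is the distance from the start in bases. The X core begins 84, 94 and 97 bases before the start of H2-Aa, H2-Eb1 and H2-DMb1, and the Y core follows in each.

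Total counts over genes were 55882693 to 64868123 in the BSN-37 libraries and 60437875 to 65456020 in the PBS libraries. PBS pool 1 stood apart from the other pools along the main axis of variation (principal component 1), at -36.87 against -1.62 to 14.8, and each member's log2 difference is also given without it. Markers of the labelled cell type, macrophages, were measured: Csf1r, the receptor of the macrophage growth factor, had 411 to 498 FPKM after BSN-37 and 411 to 515 after PBS. Adgre1, the gene of F4/80, had 264 to 391 FPKM after BSN-37 and 328 to 425 FPKM after PBS. Lower in level were Mertk, a receptor for dying cells, at 7.11 to 13.7 FPKM after BSN-37 and 7.23 to 9.05 FPKM after PBS, and Fcgr1, a high-affinity antibody receptor, at 7.44 to 19.3 FPKM after BSN-37 and 4.28 to 12.3 FPKM after PBS. FPKM are fragments scaled to gene length and library size, so that levels of different genes can be set side by side.

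None of the 10 members passed the test between BSN-37 and PBS, and the class II chains, the loading genes and costimulation are described here mainly by their levels and by how the pools varied. With edgeR's quasi-likelihood test over 9874 coding genes and Benjamini-Hochberg adjustment at 0.05, 0 of the 10 were called, 1 had an unadjusted p under 0.05 (Cd80), and DESeq2 called 0. The same rule called 0.0101% of all genes tested with edgeR and 1.21% with DESeq2, and 9.11% had an unadjusted p under 0.05, 4.71% with the higher level after BSN-37, as Cd80 had. Of the 10 members, 5 stood higher and 5 lower after BSN-37, with a median log2 difference of -0.02, beside -0.0024 over all genes tested. Their differences had a median size of 0.24 on the log2 scale with a median standard error of 0.22, against 0.15 and 0.16 over all genes. The standard error includes the spread between pools, so the members' differences were estimated less precisely than that of the median gene.

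Cd74, the invariant chain and the most abundant member, had 855, 619.6 and 428 FPKM in BSN-37 pools 1 to 3, against 784, 707 and 769.9 FPKM in PBS pools 1 to 3. It ranked 32 among 21992 coding genes by mean FPKM and lies on chromosome 18 from 60803848 to 60812652, plus strand (GRCm38). The PBS pools lay close together, while the BSN-37 pools included both the highest and the lowest value, so the groups overlapped. The log2 difference was -0.27 (SE 0.23; 95% interval -0.80 to 0.25; edgeR adjusted p = 0.71), and without PBS pool 1 it was -0.24.

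H2-Ab1, the beta chain of the I-A molecule, had 325, 242 and 155 FPKM in BSN-37 pools 1 to 3, against 258, 212 and 265 FPKM in the PBS pools. Its partner H2-Aa, the alpha chain, had 237, 213 and 153 FPKM after BSN-37 and 267, 214 and 198 FPKM after PBS. Both chains were lowest in BSN-37 pool 3. The 2 genes lie side by side on chromosome 17, H2-Ab1 from 34257689 to 34269419 on the plus strand and H2-Aa from 34282744 to 34287823 on the minus strand. The log2 differences were -0.05 (SE 0.25, 95% interval -0.62 to 0.52, edgeR adjusted p = 0.958) for H2-Ab1 and -0.20 (SE 0.19, -0.62 to 0.23, 0.744) for H2-Aa. Without PBS pool 1 they were -0.0075 for H2-Ab1 and -0.056 for H2-Aa. The ratio of beta to alpha chain was 1.17 ± 0.178 after BSN-37 and 1.10 ± 0.208 after PBS (FPKM, SD, n = 3 pools each), close to equal in both groups.

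H2-Eb1, the beta chain of the second class II molecule, I-E, had 125, 127 and 77.9 FPKM in the BSN-37 pools, against 163, 131 and 115 FPKM in the PBS pools. Its log2 difference was -0.34 (SE 0.21, 95% interval -0.81 to 0.13, edgeR adjusted p = 0.632), and without PBS pool 1 it was -0.18. The alpha chain of I-E, H2-Ea, is annotated as a polymorphic pseudogene, because C57BL/6 mice do not make it, while the H-2d haplotype of Balb/c mice does. In the pools it had 196, 185 and 121 FPKM after BSN-37 and 175, 159 and 162 FPKM after PBS, a level between those of H2-Aa and H2-Eb1. Its groups overlapped too, with a log2 difference of -0.01 (edgeR adjusted p = 0.99).

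The DM genes stood lower than the chains they serve. H2-DMa, the alpha chain of DM, had 36.4, 37.3 and 31.95 FPKM in the BSN-37 pools, against 44.4, 29.0 and 26.5 FPKM in the PBS pools. The BSN-37 values lay inside the PBS range, whose top was PBS pool 1, and the log2 difference was 0.05 (SE 0.19, edgeR adjusted p = 0.949). Without PBS pool 1 it was 0.32 (edgeR unadjusted p = 0.0197, adjusted p = 0.528). H2-DMa overlaps Brd2 on the other strand, a gene with up to 23032 reads in a library, and the sources used here do not say whether the counting used strand. H2-DMb1, a DM beta chain, had 9.19, 6.86 and 5.75 FPKM after BSN-37 and 9.73, 6.12 and 5.42 FPKM after PBS, with a log2 difference of 0.01 (SE 0.26), and of 0.32 without PBS pool 1 (edgeR adjusted p = 0.788). Its paralog H2-DMb2 was more abundant, at 19.4, 15.8 and 12.4 FPKM after BSN-37 and 15.5, 11.7 and 11.1 FPKM after PBS, and reads that the paralogs share may have been split between them. H2-Oa and H2-Ob, which form the DO inhibitor of DM best known from B cells, reached at most 1.42 and 1.37 FPKM and lay under the expression filter.

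**Figure D2:**
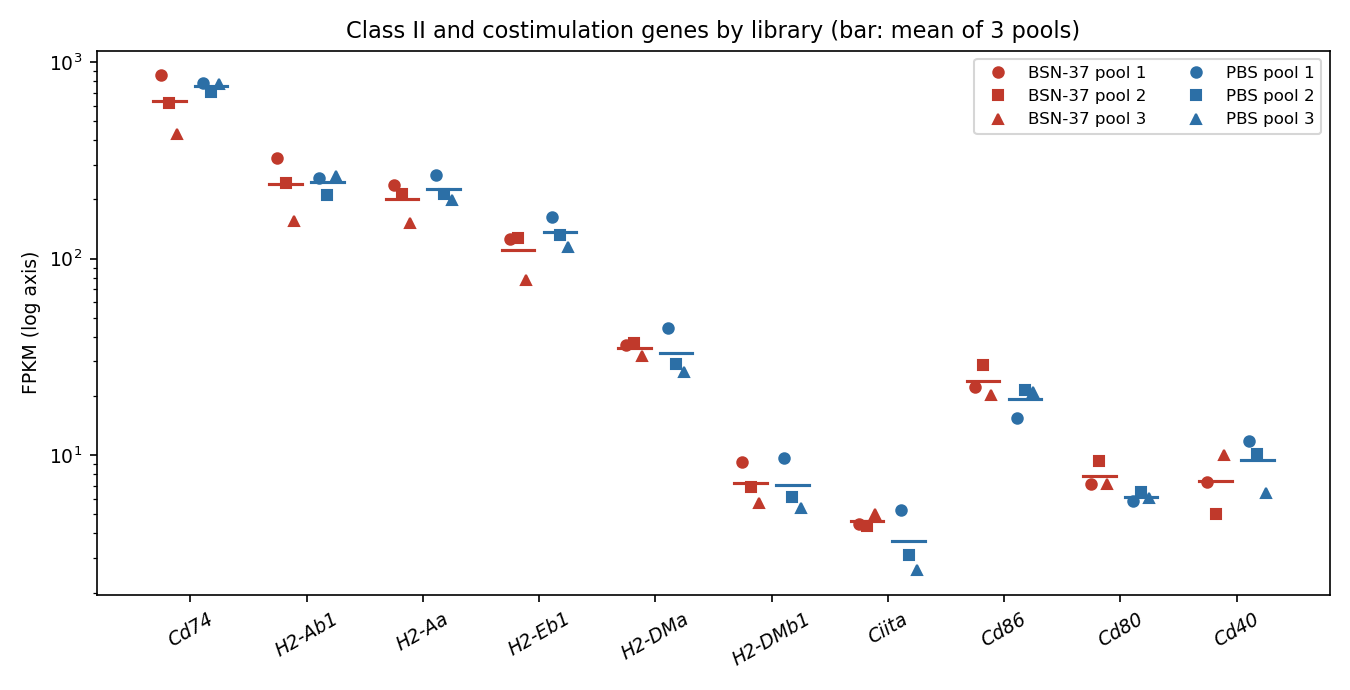
FPKM (log axis) of the 10 members in each library, BSN-37 pools in red left of PBS pools in blue, with bars at the means of 3 pools. Cd74 and the class II chains fill the top of the scale and are lowest in BSN-37 pool 3 (red triangles); the groups overlap for each gene except Cd80.

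Ciita, whose product drives the genes above, was the least abundant member. It had 4.45, 4.38 and 5.02 FPKM in the BSN-37 pools, against 5.29, 3.11 and 2.61 FPKM in the PBS pools. The BSN-37 pools lay close together between PBS pool 1, the highest of all, and the other PBS pools. The log2 difference was 0.31 (SE 0.24, 95% interval -0.24 to 0.86, edgeR adjusted p = 0.69). Without PBS pool 1 it was 0.67 (edgeR unadjusted p = 0.0013, adjusted p = 0.366), still short of a call. Without PBS pool 2 it was 0.19 and without PBS pool 3 it was 0.12 (edgeR unadjusted p = 0.508 and 0.611). Ciita overlaps Dexi, a gene on the other strand that reached 3.60 FPKM.

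The costimulation genes differed in direction. Cd80 had 7.12, 9.32 and 7.13 FPKM in the BSN-37 pools, against 5.83, 6.51 and 6.03 FPKM in the PBS pools. It was the single member whose groups did not overlap, all BSN-37 pools lying above all PBS pools, a pattern that 14.6% of all genes tested showed in either direction and 7.84% in this one. Its log2 difference was 0.33 (SE 0.14, edgeR unadjusted p = 0.0473, adjusted p = 0.542), and the 95% interval ran from just above 0 to 0.65. Without BSN-37 pool 2 it was 0.22 (edgeR unadjusted p = 0.191, adjusted p = 0.756), and without PBS pool 1 it was 0.30 (0.0743 and 0.663).

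Cd86, the more abundant ligand of CD28, had 22.2, 28.8 and 20.2 FPKM in the BSN-37 pools, against 15.5, 21.5 and 21.1 FPKM in the PBS pools. PBS pool 1 was lowest and the groups overlapped (log2 difference 0.24, SE 0.17, 95% interval -0.14 to 0.63, edgeR adjusted p = 0.665). Without PBS pool 1 the difference was 0.11, and without BSN-37 pool 2 it was 0.12. Cd86 exceeded Cd80 in every pool, by a ratio of FPKM of 3.01 ± 0.161 after BSN-37 and 3.15 ± 0.441 after PBS (SD, n = 3 pools each). Cd86 lies on chromosome 16 from 36603869 to 36666081 and Cd80 from 38455561 to 38496335 on the same chromosome.

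Cd40, the receptor of CD40 ligand, had 7.30, 5.01 and 10.0 FPKM in the BSN-37 pools, against 11.8, 10.1 and 6.43 FPKM in the PBS pools. Its values crossed widely between the groups, with a log2 difference of -0.24 (SE 0.26, 95% interval -0.83 to 0.36, edgeR adjusted p = 0.778), and without PBS pool 1 the difference was 0.03. A circular RNA of a single member was listed, one within Cd80 (chromosome 16, 38479064 to 38482733). It had 0 junction reads in each BSN-37 library, against 8, 0 and 0 in PBS libraries 1 to 3, and a count of 0 allows up to 3 reads per library, for counting error only.

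**Figure D3:**
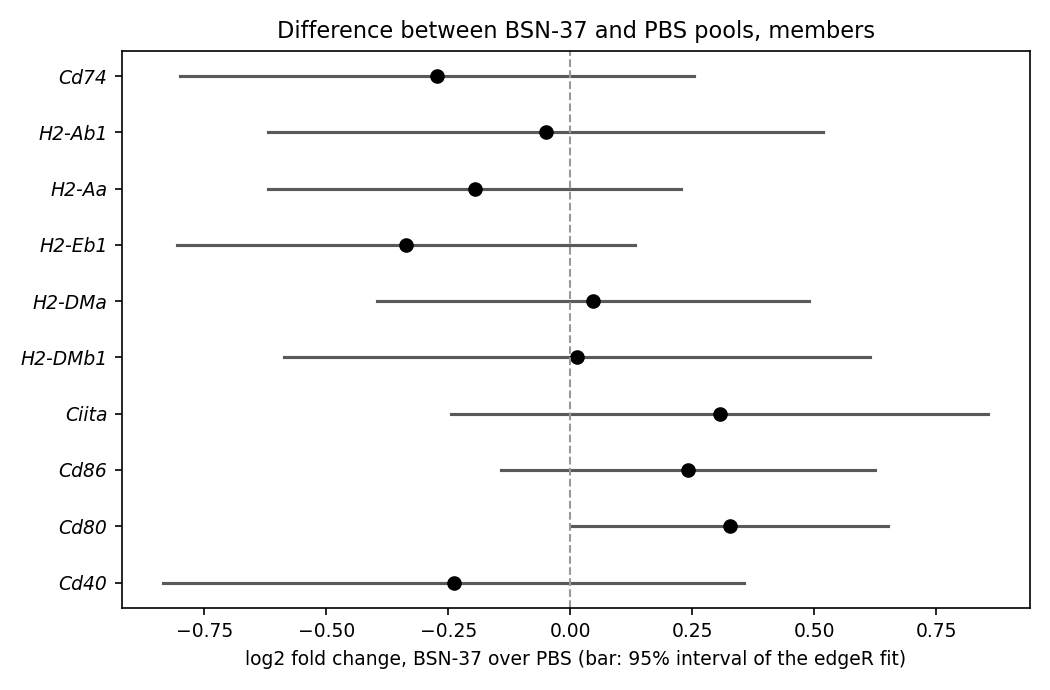
Log2 fold change of BSN-37 over PBS for the 10 members (points) with the 95% interval of the edgeR fit (bars). The points lie between -0.34 for H2-Eb1 and 0.33 for Cd80, and the interval of each member except Cd80 includes 0.

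By mean FPKM over the 6 pools the order of levels was Cd74, H2-Ab1, H2-Aa, H2-Eb1, H2-DMa, Cd86, Cd40, H2-DMb1, Cd80 and Ciita. The I-A chains could not be ranked against each other, since H2-Ab1 exceeded H2-Aa in all BSN-37 pools but in PBS pool 3 alone of the PBS pools. Cd40, H2-DMb1 and Cd80 overlapped in level, with Cd80 the highest of them by mean after BSN-37 and Cd40 after PBS.

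The members followed different patterns among the pools. Cd74, H2-Ab1, H2-Aa and H2-Eb1 moved together, with their mean log2 level at 0.16, -0.20 and -0.72 in BSN-37 pools 1 to 3 and 0.17, -0.13 and -0.03 in PBS pools 1 to 3, relative to the PBS mean. All 4 were lowest in BSN-37 pool 3, and without that pool their log2 differences were -0.06 for Cd74, 0.18 for H2-Ab1, -0.04 for H2-Aa and -0.14 for H2-Eb1. Without BSN-37 pool 1 they were -0.58 for Cd74 (edgeR unadjusted p = 0.0113, adjusted p = 0.552), -0.36 for H2-Ab1, -0.35 for H2-Aa and -0.46 for H2-Eb1. Across the 6 pools Pearson's r over the 6 pairs of these genes lay between 0.709, for H2-Ab1 with H2-Eb1, and 0.965, for H2-Aa with H2-Eb1, given as a description since the values share libraries and depth.

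Ciita did not share this pattern. BSN-37 pool 3, the lowest for the chains, held the highest Ciita level of the BSN-37 group, and Pearson's r over the 6 pools was 0.104 with H2-Aa, -0.129 with H2-Ab1, -0.031 with H2-Eb1 and -0.274 with Cd74. As deviations from the group means, r was 0.399 with H2-Aa, -0.057 with H2-Ab1, 0.345 with H2-Eb1 and -0.043 with Cd74. For the DM genes, also CIITA targets, r with Ciita over the 6 pools was 0.838 (H2-DMa) and 0.624 (H2-DMb1), and as deviations 0.885 and 0.700. The ratio of Cd74 to Ciita in FPKM was 192, 142 and 85.3 in the BSN-37 pools, against 148, 228 and 295 in the PBS pools. Irf8, an interferon regulatory factor of macrophages and dendritic cells, had an r of 0.970 with Ciita, and Gbp2, an interferon-induced guanylate-binding protein, one of 0.906.

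Cd86 and Cd80 shared a pattern, and Cd40 ran opposite to them. Over the 6 pools r was 0.817 between Cd80 and Cd86 and -0.961 between Cd86 and Cd40, and as deviations from the group means -0.981. BSN-37 pool 2 had the highest Cd86 and Cd80 and the lowest Cd40, while PBS pool 1 had the lowest Cd86 and Cd80 and the highest Cd40. Irf1, a transcription factor that interferon induces, had an r of 0.919 with Cd40, with 37.0, 25.0 and 38.7 FPKM in the BSN-37 pools and 42.4, 29.4 and 24.1 FPKM in the PBS pools.

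**Figure D4:**
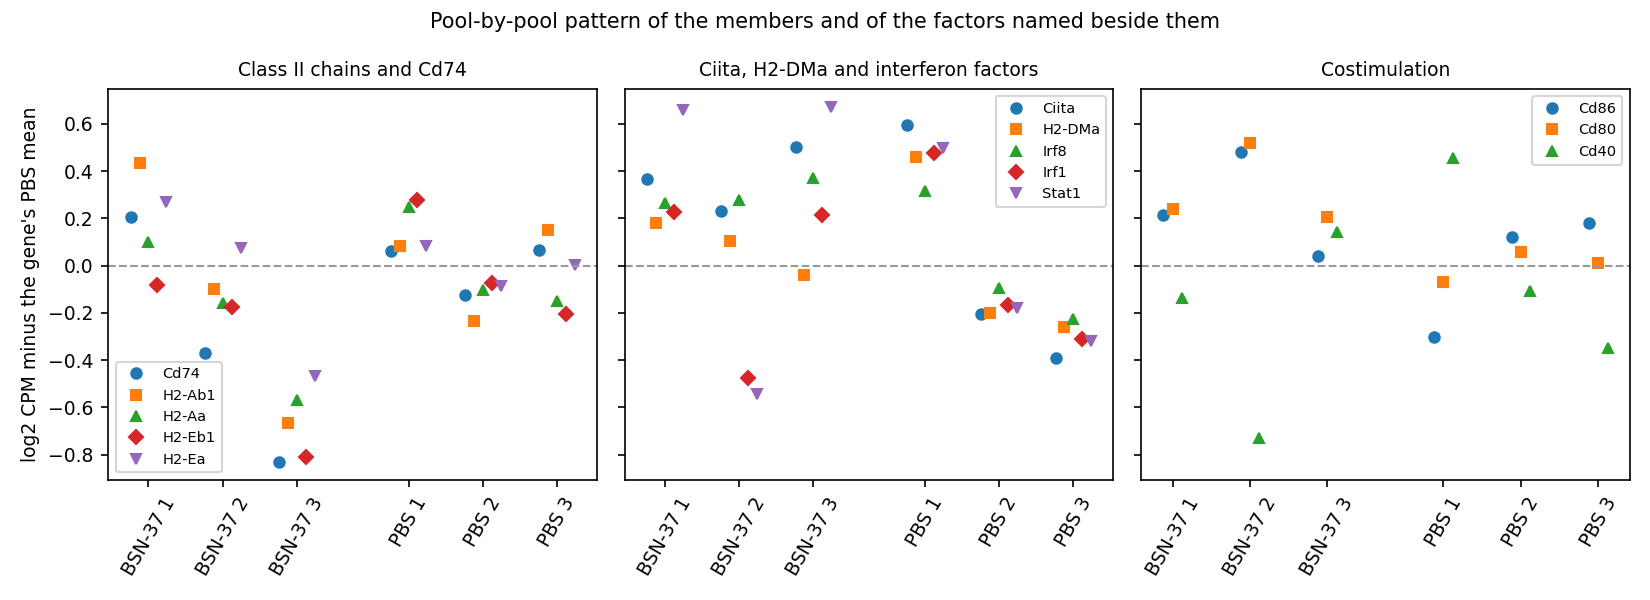
Log2 CPM (counts scaled to library size) of each gene minus its PBS mean, by pool, BSN-37 pools left of PBS pools, in 3 panels. In BSN-37 pool 3 the class II chains and Cd74 are low (Cd74 at -0.83) while Ciita is at 0.50; Cd40 (green, right panel) is low where Cd86 and Cd80 are high.

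The genes whose pattern came nearest to the mean of Cd74, H2-Ab1, H2-Aa and H2-Eb1 were sought among 6181 other genes with at least 5 FPKM in every library. By Pearson's r over the 6 pools they were Eif4a3, a helicase of the exon junction complex (0.996), Rpl13, a ribosomal protein (0.987), Narfl, a factor of iron-sulphur protein assembly (0.985), Ubtf, a factor of ribosomal RNA transcription (0.985), and Ddrgk1, an adaptor of the UFM1 pathway (0.979). H2-Ea stood at rank 107 of the 6181, with an r of 0.922. With 6 pools and so many genes, high values of r arise readily, and they are given as a description.

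In the wider class II pathway no gene passed in either direction. Of 11 chain and loading genes, 8 were tested, 3 higher and 5 lower after BSN-37, with a median log2 difference of -0.03. The genes of this list under the filter, H2-Oa, H2-Ob and H2-Eb2, had higher mean FPKM after BSN-37. Their means were 1.13, 0.956 and 0.227 FPKM after BSN-37, against 0.690, 0.560 and 0.0917 FPKM after PBS. Of the 14 genes around class II transcription, a list that holds Ciita itself and Socs1, an inhibitor of cytokine signalling, beside the factors, 10 stood higher and 4 lower (median 0.07), with 0 called and 0 at an unadjusted p under 0.05. Lowest in p was Irf8, with 45.7, 49.7 and 51.3 FPKM after BSN-37 and 49.4, 37.8 and 32.9 FPKM after PBS (log2 difference 0.29, edgeR adjusted p = 0.59). Next came Nfya, a subunit of the Y box factor NF-Y, with 47.5, 52.9 and 47.9 FPKM after BSN-37 and 55.7, 55.8 and 54.2 FPKM after PBS (-0.19, edgeR adjusted p = 0.595). Its BSN-37 pools all lay below its PBS pools, while Irf8 overlapped through PBS pool 1.

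Of the 11 genes of antigen processing and class II turnover, 10 were tested, 8 higher and 2 lower (median 0.14), with 0 called by edgeR or DESeq2 and 2 at an unadjusted p under 0.05. These were proteases of the endosome. Lgmn, the asparaginyl endopeptidase legumain, had 403, 412 and 456 FPKM in the BSN-37 pools, against 306, 332 and 311 FPKM in the PBS pools (log2 difference 0.40, SE 0.11, edgeR adjusted p = 0.411). Ctsl, cathepsin L, had 723, 784 and 919 FPKM, against 595, 630 and 626 FPKM (0.36, adjusted p = 0.467 in edgeR). Both genes stood apart between the groups, with their top value in BSN-37 pool 3. Of the 10 genes tested, 4 had groups that did not overlap, a pattern that 14.6% of all genes tested showed.

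Ctss, cathepsin S, which trims the invariant chain in antigen-presenting cells, overlapped between the groups at 1190.2 to 1525 FPKM after BSN-37 and 1201 to 1411 FPKM after PBS. March1, the ubiquitin ligase that takes class II and CD86 off the surface, had 21.3, 30.3 and 20.7 FPKM after BSN-37 and 12.2, 20.6 and 19.8 FPKM after PBS. Sppl2a, the protease that clears the last stub of the invariant chain, had 53.3, 52.0 and 53.8 FPKM after BSN-37 and 45.1, 51.0 and 43.1 FPKM after PBS. All BSN-37 pools lay above all PBS pools for both, by a small margin, and neither passed (March1 log2 difference 0.42, edgeR adjusted p = 0.579, Sppl2a 0.19 and 0.614).

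Of 18 costimulatory and coinhibitory ligands, 11 were tested, 8 higher and 3 lower after BSN-37 (median 0.24), with 0 called by edgeR or DESeq2 and 3 at an unadjusted p under 0.05, Cd80 among them. Cd24a, a small glycoprotein that can costimulate T cells, had 25.3, 28.3 and 17.9 FPKM in the BSN-37 pools, against 13.1, 18.1 and 17.2 FPKM in the PBS pools (log2 difference 0.53, edgeR adjusted p = 0.478). Icosl, the ligand of ICOS, was on the other side with 4.59, 4.58 and 3.44 FPKM, against 6.51, 6.10 and 4.38 FPKM (-0.45, edgeR adjusted p = 0.529). Vsir, the gene of the checkpoint ligand VISTA, had 40.9, 45.8 and 45.3 FPKM, against 39.4, 35.7 and 34.5 FPKM (0.25, edgeR adjusted p = 0.56). Cd70 was listed at 0 in every library.

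The partners of these ligands on T cells were nearly absent. All 7 receptor genes, Cd28, Ctla4, Cd40lg, Icos, Pdcd1, Cd4 and Lag3, lay under 1 FPKM in every library, and Cd40lg was listed at 0 throughout. All 10 genes of T and NK cells lay under 1 FPKM as well. Ifng, the gene of interferon gamma, was listed at 0 in all BSN-37 libraries and reached 0.0219 FPKM in PBS library 2.

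Of 7 tested genes around interferon gamma, 5 stood higher (median 0.26), with 0 called by edgeR or DESeq2 and 1 at an unadjusted p under 0.05. The 4 receptor and kinase genes were split, Ifngr1 and Jak1 higher and Ifngr2 and Jak2 lower, while the interferon-induced genes Cxcl10, Gbp2 and Irgm1 stood higher with overlapping groups. The gene at an unadjusted p under 0.05 was Ifngr1, the ligand-binding chain of the receptor, with 66.3, 84.6 and 68.2 FPKM in the BSN-37 pools, against 47.4, 58.4 and 53.9 FPKM in the PBS pools (log2 difference 0.43, SE 0.13, edgeR adjusted p = 0.426). The groups were apart for Ifngr1 and overlapped for Ifngr2, its partner chain, at 59.5, 62.9 and 55.0 FPKM after BSN-37 and 61.1, 60.002 and 53.6 FPKM after PBS.

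Downstream of CD40, 8 of 10 genes stood lower after BSN-37 (median -0.18), with no call by edgeR, 2 at an unadjusted p under 0.05, and a call by DESeq2 for Traf1. Traf1, an adaptor of TNF receptors that NF-kB induces, had 21.2, 20.9 and 17.5 FPKM in the BSN-37 pools, against 32.7, 30.4 and 24.6 FPKM in the PBS pools (log2 difference -0.61, SE 0.14, edgeR adjusted p = 0.359, DESeq2 adjusted p = 0.0174). Traf2, the adaptor next to it, had 10.7, 11.2 and 9.79 FPKM, against 17.3, 12.5 and 11.5 FPKM (-0.40, edgeR adjusted p = 0.519). All BSN-37 pools lay below all PBS pools for both. Nfkb2 and Relb, which form the dimer of the alternative NF-kB pathway, overlapped between the groups (log2 differences -0.26 and -0.23).

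**Figure D5:**
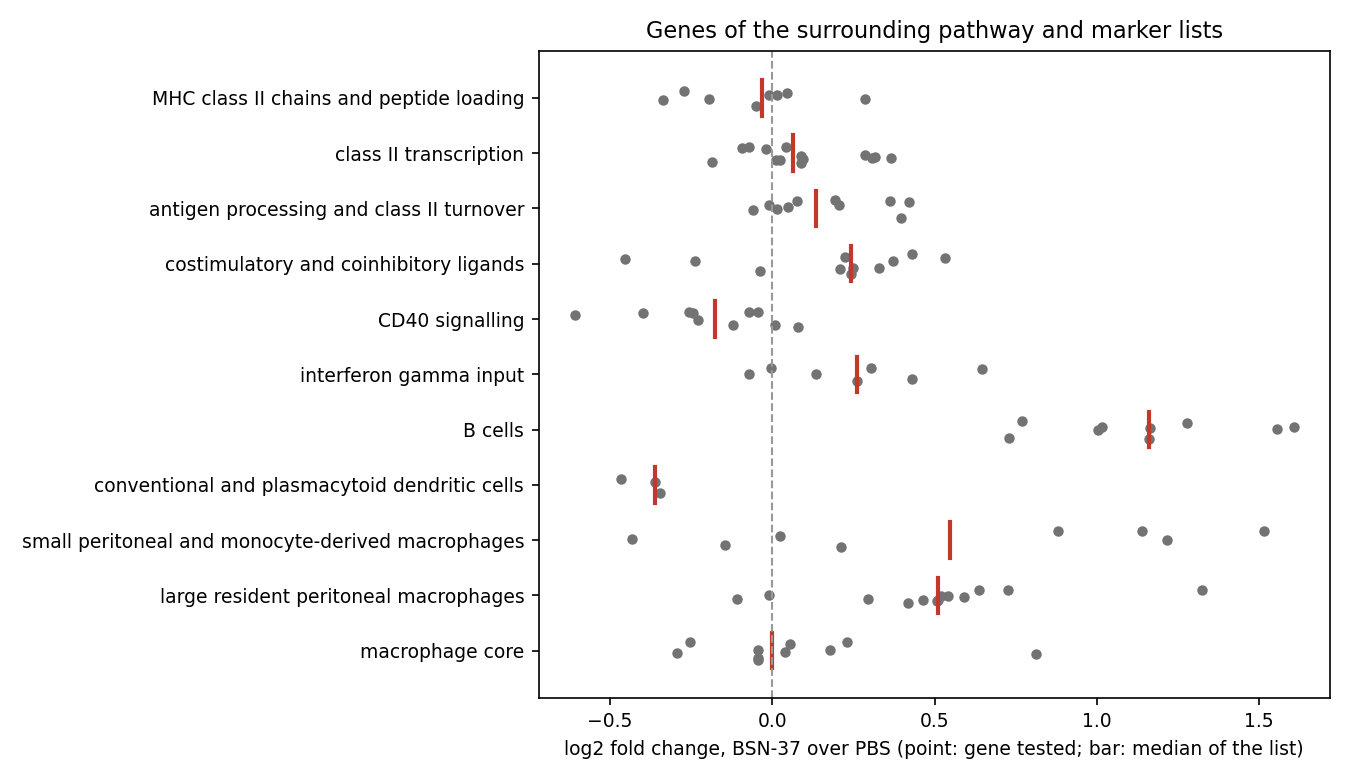
Log2 fold change of BSN-37 over PBS for each gene tested (points) in the lists around the members, with the median of each list (red bars). The list of class II chains and peptide loading is centred at -0.03, that of costimulatory and coinhibitory ligands at 0.24, and the B cell markers stand apart at 1.16.

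Class II is also made by B cells and dendritic cells, whose markers were measured in the same libraries. In bulk RNA, fewer cells of a type and less RNA per cell cannot be told apart. Of 16 B cell genes 9 were tested and all 9 stood higher after BSN-37 (median log2 difference 1.16), with no call by edgeR, 6 at an unadjusted p under 0.05, and 4 calls by DESeq2. The summed level of the 16 was 104, 118 and 53.7 FPKM in the BSN-37 pools, against 36.5, 57.7 and 34.5 FPKM in the PBS pools. The immunoglobulin genes Igkc and Ighm were the largest items of this sum in every pool. Igkc had 46.8, 52.1 and 22.2 FPKM after BSN-37 and 13.2, 22.5 and 17.3 FPKM after PBS. No marker was listed at 0 throughout. Cd79a, which encodes a signalling chain of the antigen receptor, had 5.42, 4.52 and 2.82 FPKM after BSN-37 and 1.05, 1.74 and 1.32 FPKM after PBS (log2 difference 1.61, edgeR adjusted p = 0.278, DESeq2 adjusted p = 0.000181). Pearson's r of the class II pattern with Cd79a was -0.166 and with Cd79b 0.163 over the 6 pools, and the part of B cells in the class II values was not tested.

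Of 13 dendritic cell genes 3 were tested, all 3 lower after BSN-37 (median -0.36), with 0 called and 1 at an unadjusted p under 0.05. Itgax, the gene of CD11c, had 6.42, 4.93 and 3.71 FPKM in the BSN-37 pools, against 7.55, 6.77 and 6.15 FPKM in the PBS pools (log2 difference -0.46, edgeR adjusted p = 0.543). It was lowest in BSN-37 pool 3, as the class II chains were. Its r with the class II pattern was 0.918, below that of H2-Ea (0.922, rank 107 of the 6181 genes compared). Some genes of the list under the filter had higher mean FPKM after BSN-37, among them Ccr7, the receptor that guides dendritic cells to lymph nodes, with 2.14, 2.86 and 0.845 FPKM, against 0.911, 0.756 and 0.916 FPKM after PBS. The means of Fscn1 (0.811 and 0.523 FPKM), Dpp4 (0.385 and 0.181 FPKM) and Flt3 (0.198 and 0.0902 FPKM), BSN-37 and PBS in that order, also stood higher. The defining genes Xcr1, Clec9a and Flt3 reached at most 0.0811, 0.0703 and 0.275 FPKM. The summed level of the list was 13.4, 12.2 and 7.37 FPKM after BSN-37 and 12.3, 11.4 and 10.7 FPKM after PBS. Itgax alone was the largest item of this sum in every pool, so the sum mainly follows that gene. The part of dendritic cells in the class II values was not tested.

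Among macrophage subsets, 8 of 9 genes of small peritoneal and monocyte-derived cells were tested, 6 higher and 2 lower (median 0.55), with no call by edgeR, 4 at an unadjusted p under 0.05, and 2 calls by DESeq2, Ccr2 and Ly6c2. Ccr2, the chemokine receptor of monocytes, had 49.6, 58.3 and 57.6 FPKM in the BSN-37 pools, against 18.5, 27.9 and 27.0 FPKM in the PBS pools (log2 difference 1.14, edgeR adjusted p = 0.278, DESeq2 adjusted p = 3.5e-07). Ly6c2, a surface marker of monocytes, had 28.8, 18.1 and 10.2 FPKM, against 7.17, 5.77 and 5.84 FPKM (1.52, edgeR adjusted p = 0.359, DESeq2 adjusted p = 0.00072). All BSN-37 pools lay above all PBS pools for both. On the lower side, Retnla, a gene of alternative activation, had 99.5, 44.4 and 35.0 FPKM after BSN-37 and 60.8, 94.6 and 83.8 FPKM after PBS. Of 13 genes of large resident macrophages, 11 stood higher and 2 lower (median 0.51), with 0 called by edgeR or DESeq2. An unadjusted p under 0.05 was found for 7 of them, beside 9.11% of all genes tested. The 2 lower genes were Timd4 and Cd5l (log2 differences -0.0094 and -0.11), both with overlapping groups. Cd5l had the highest mean level of the list, with 285 to 322 FPKM after BSN-37 and 219 to 409 FPKM after PBS. The macrophage core list was centred near 0, with 5 genes higher and 5 lower. The part of these subsets in the levels of the members was not tested.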

How the data were processed

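RNA of 6 libraries was compared, 3 pools per group, with groups and replicate numbers from the labels. Per the file headers, the authors deposited raw read counts and FPKM for every gene and library. Per the submitters' processing notes, GRCm38 was the genome build. Aligner and counter, and any use of strand, are not stated there. The design text speaks of microarrays, while the library protocol and the values are those of sequencing. The deposited circular RNA table gave junction read counts. Of the remaining columns, 10 with library or group values were not used.

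Coding genes (GENCODE M21, polymorphic pseudogenes and immunoglobulin genes included) with at least 1 FPKM in at least 3 libraries were tested on counts with edgeR 4.0.16 (R 4.3.3; TMM, quasi-likelihood, two-sided, Benjamini-Hochberg over 9874 genes, threshold 0.05), without covariates; all 10 members passed this filter. Standard errors and 95% intervals come from the same fit, and Ifi30, annotated as a non-coding transcript, was not tested. Alternatives were DESeq2 1.42.0, limma 3.58.1 on log2(FPKM + 1) and log2(FPKM + 0.1), other scaling and filters, all genes of the table, a replicate block and each library left out. The test was checked on simulated counts. No pair of libraries agreed within counting noise (chi-square over its degrees of freedom 55.1 to 277). The labels do not say that pools share a batch. The p-values come from weighing the group difference against the spread between pools of the same group.

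Members, 17 gene lists and tests were chosen with earlier results of these data known. Named are the members, up to 4 genes of lowest p per list and the 5 genes nearest in pattern. Absent markers, paralogs, Brd2, Dexi, Csf1r, Adgre1, Mertk, Fcgr1, Ctss, Ifngr2, Jak1, Jak2, Cxcl10, Irgm1, Ccr7, Fscn1, Dpp4, Retnla, Timd4, Cd5l and the genes set beside Ciita and Cd40 were chosen after their values were seen. The H-2d haplotype differs from the reference, and the treatment of mismatched reads is not stated. The labels describe no molecular identifiers.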

Additional observations from a re-analysis of the deposited data

How the results depend on the processing

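No member was called under any of the 14 other settings, 6 of which left out a library; over 139 refits of a member the lowest adjusted p was 0.366, for Ciita without PBS pool 1. The 6 members Cd74, H2-Aa, H2-Eb1, Ciita, Cd86 and Cd80 kept their direction in all of these. The other 4 turned in refits without a library, in 8 in all: H2-Ab1 ranged from -0.36 to 0.18 on the log2 scale, H2-DMa from -0.081 to 0.32, H2-DMb1 from -0.21 to 0.32 and Cd40 from -0.44 to 0.030, and the cause was not tested. Ciita could not be fitted at 5 FPKM or more, which removed it. Of all coding genes 1 was called; the count was 0 with median-of-ratios scaling, with limma at either pseudocount, at 5 FPKM or more, over all genes of the table and with the replicate block, 2 without a filter and 119 with DESeq2, and lay between 0 and 12 in refits lacking a library. In the lists beside the members 0 genes were called, and 7 with DESeq2. The labels give no shared source for same-numbered pools, and their deviations correlated at 0.06, 0.14 and -0.0078, not above 0.1 in every pair, so the numbers were not taken as pairs; 4 of 6 libraries correlated best with their own number, a hint from the data only. The replicate block called 0 of the 10 members. The intervals given with the members show which changes the 3 pools per group could have missed.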
